A study of Drosophila melanogaster with 9 samples.

Results

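The 9 genes described here, ac, sc, ase, sens, neur, phyl, pnr, ush and emc, act in the step that picks single bristle precursor cells out of an epithelium in Drosophila melanogaster. They were taken by gene symbol from a count table of 14168 entries. All 9 were among the 8487 genes with enough counts to be tested. The source was the wing imaginal disc of larvae in the third instar, a tissue that forms the adult wing and dorsal thorax. Its polyadenylated RNA was sequenced, and each extraction pooled 100 discs. The 9 libraries were 3 biological replicates of each of 3 genotypes, and every genotype carried the en-GAL4 driver. The control was en-GAL4>+, with columns that name the strain w1118, the single knockdown (NAT10 knockdown in the plots) was en-GAL4 > UAS-NAT10-RNAi, and the double knockdown was en-GAL4 > UAS-NAT10-RNAi,Xrp1-RNAi. NAT10 acetylates cytidines in RNA, ribosomal RNA among them, and Xrp1 is a transcription factor of the response to ribosomal stress. The question posed by the design is how much of the response to NAT10 loss needs Xrp1. GAL4 under en control acts in posterior cells, and whole discs were used, so targeted and untargeted cells were sequenced together. A library with Xrp1-RNAi alone was not analysed here.

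In the wing disc, ac and sc are switched on in small groups of cells called proneural clusters, and their basic helix-loop-helix proteins give each cell of a cluster the ability to become a sensory organ precursor. Notch signalling between neighbours then restricts that fate to single cells, in which sens and ase are switched on. The position of the clusters on the thorax is set by factors such as Pannier, and their activity is held back by Extramacrochaetae. The wing margin also forms rows of bristles.

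The members lie at separate loci except for 3 neighbours on the X chromosome. Positions are 1-based in the BDGP6.54 annotation. ac (FBgn0000022, X, 370031 to 370947), sc (FBgn0004170, X, 396060 to 397497) and ase (FBgn0000137, X, 460747 to 463176) are single-exon genes on the plus strand and belong to the achaete-scute complex. sens (FBgn0002573) is at 3L, 13396228 to 13401125, on the minus strand, and emc (FBgn0000575) at 3L, 749400 to 753492, on the plus strand. neur (FBgn0002932) is at 3R, 9020348 to 9039471, on the minus strand, and pnr (FBgn0003117) at 3R, 16026079 to 16041796, on the plus strand. phyl (FBgn0013725) is at 2R, 14427336 to 14432337, on the minus strand, and ush (FBgn0003963) at 2L, 476220 to 540560, on the plus strand. Of the exon bases of neur, 38.8% overlap the antisense gene asRNA:CR31429, and the labels do not state that the library kit kept the strand, so reads of that RNA and of neur cannot be told apart. Of the exon bases of ush, 7.81% overlap lncRNA:CR46258 on the same strand. Neither RNA was analysed here.

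The libraries held 14183856 to 19949448 estimated counts, and 3 counts corresponded to 0.150 to 0.213 CPM (counts scaled to a common library size). The NAT10 gene, listed as l(1)G0020, was at 101 CPM in control, 62.2 in the single knockdown and 74.7 in the double knockdown. Xrp1 was at 521, 941 and 409 CPM. The 5 disc epithelium markers (nub, vg, ap, shg, crb) summed to 2589 to 2665 CPM in control, 2056 to 2113 in the single knockdown and 2514 to 2562 in the double knockdown, so the labelled tissue was present in every library. Marker lists of other cells and of developmental stage also moved with genotype, and their values stand beside the comparisons. Levels below are normalised CPM, as mean ± SD within a genotype (n = 3 libraries). A gene is called higher or lower at an adjusted p under 0.05 in the quasi-likelihood test of edgeR, adjusted over all tested genes by the Benjamini-Hochberg method, and log2 fold changes are given ± SE.

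**Figure D1:**
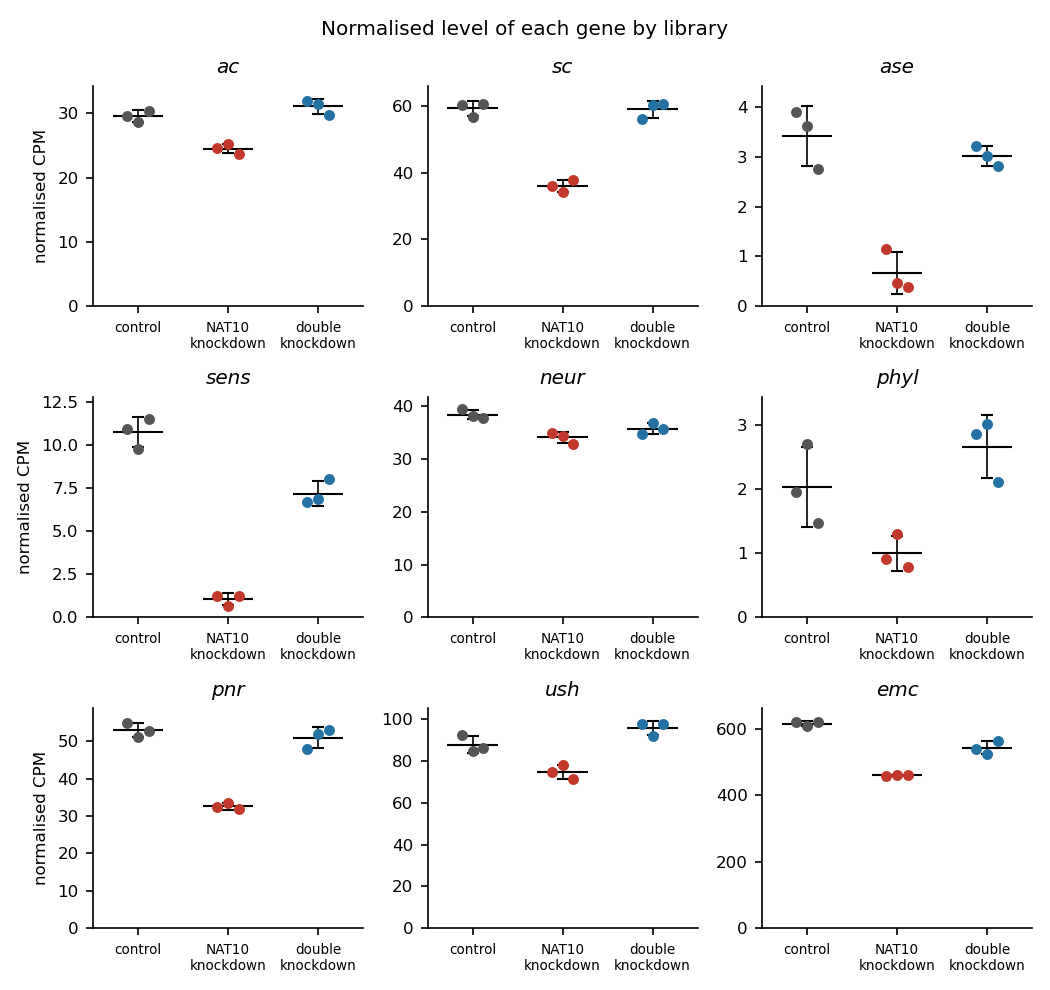
Normalised CPM of each of the 9 genes in the 9 libraries, on linear axes that start at 0. Points are single libraries, horizontal lines are means and error bars are SDs of 3 libraries. In every panel the 3 single knockdown libraries sit below the 3 control libraries.

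All 9 genes were lower in the single knockdown than in control, with no overlap between libraries of the 2 genotypes for any of them. The largest differences were those of sens, 10.2-fold lower, and ase, 5.09-fold lower, and the smallest was that of neur, 1.13-fold lower. Among all tested genes 29.6% were called lower and 32.5% higher in this comparison, and 31.0% were lower without overlap. The median log2 fold change of the 9 genes was -0.70, against 0.03 over all tested genes. The 9 genes were chosen with earlier results of these data known.

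pnr and ush encode a pair of partner proteins of the thorax prepattern. Pannier is a GATA factor that activates ac and sc in the dorsal thorax, and U-shaped is a zinc finger protein that binds Pannier and limits this activity. pnr read 54.9, 51.2 and 52.7 CPM in the control libraries, 32.3, 33.6 and 31.8 in the single knockdown libraries and 47.8, 52.0 and 53.0 in the double knockdown libraries. The single knockdown stood apart from both other genotypes, which overlapped each other. The log2 fold change of pnr in the single knockdown against control was -0.70 ± 0.055 (adjusted p = 1.95e-11). ush read 92.4, 84.7 and 86.0 CPM in control, 74.4, 78.0 and 71.1 in the single knockdown and 97.4, 91.8 and 97.4 in the double knockdown. All 3 single knockdown libraries were below every control library, by less than for pnr. Its log2 fold change was -0.24 ± 0.046 (adjusted p = 7.11e-05).

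ac and sc are the proneural genes of the external bristles, and their proteins bind DNA as dimers with Daughterless. ac read 29.5, 28.6 and 30.4 CPM in control, 24.5, 25.1 and 23.7 in the single knockdown and 31.9, 31.5 and 29.8 in the double knockdown. Here the single knockdown libraries were the 3 lowest of the 9. The log2 fold change of ac was -0.27 ± 0.065 (adjusted p = 0.000774). sc read 60.3, 56.8 and 60.5 CPM in control, 36.0, 34.2 and 37.9 in the single knockdown and 56.0, 60.3 and 60.4 in the double knockdown. The single knockdown libraries were again the lowest, with a wide gap to the other 6. sc was 1.64-fold lower than in control (log2 -0.72 ± 0.053, adjusted p = 6.28e-12).

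emc encodes a helix-loop-helix protein without a DNA-binding region, which ties up proneural proteins and Daughterless in inactive dimers. It read 619, 608 and 621 CPM in control, 458, 463 and 461 in the single knockdown and 541, 525 and 564 in the double knockdown. The 3 genotypes did not overlap, with control highest and the single knockdown lowest. emc was 1.34-fold lower in the single knockdown than in control (log2 -0.42 ± 0.027, adjusted p = 3.99e-13).

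The precursor genes differed most among themselves. sens encodes a zinc finger factor that reinforces proneural gene expression in the selected cell. It read 10.9, 9.79 and 11.5 CPM in control, 1.26, 0.648 and 1.22 in the single knockdown and 6.68, 6.87 and 8.02 in the double knockdown. The 3 genotypes did not overlap, and the double knockdown lay between the other two. The log2 fold change of sens in the single knockdown was -3.35 ± 0.185 (adjusted p = 1.27e-14), and 0.589% of tested genes had a lower value. The single knockdown values of sens rest on 22, 11 and 22 estimated counts. ase encodes a helix-loop-helix factor of the precursor itself. It read 3.90, 3.62 and 2.75 CPM in control, 1.14, 0.471 and 0.389 in the single knockdown and 3.21, 3.02 and 2.81 in the double knockdown. The single knockdown values rest on 20, 8 and 7 estimated counts, and they were the lowest of the 9 libraries. The log2 fold change of ase was -2.35 ± 0.301 (adjusted p = 1.77e-07), with 1.28% of tested genes lower.

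phyl encodes an adaptor that directs the ubiquitin ligase Sina to the repressor Tramtrack. It read 1.95, 2.70 and 1.46 CPM in control, 0.915, 1.296 and 0.778 in the single knockdown and 2.86, 3.02 and 2.105 in the double knockdown. The counts behind the single knockdown values were 16, 22 and 14, and the nearest libraries of control and single knockdown were at 1.46 and 1.296 CPM. The log2 fold change of phyl was -1.01 ± 0.303 (adjusted p = 0.00544). neur encodes a ubiquitin ligase that acts on Delta in the precursor and is also expressed more widely in development. It read 39.5, 38.1 and 37.7 CPM in control, 35.01, 34.3 and 32.9 in the single knockdown and 34.7, 36.9 and 35.6 in the double knockdown. Control was highest, and the other 2 genotypes overlapped. The log2 fold change of neur was -0.17 ± 0.058 (adjusted p = 0.0115), the smallest of the 9.

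Bulk libraries of whole discs cannot tell fewer cells of a type from less RNA per cell, and this holds for every level given here. Marker lists of other cells differed between the same genotypes. All 5 adult muscle precursor markers were called lower in the single knockdown, and their sum was 184 to 186 CPM in control against 133 to 137. All 3 posterior compartment markers were called lower, with sums of 249 to 264 against 188 to 194 CPM. They differed in size, with means of 101.1 against 61.65 CPM for en, 71.79 against 53.25 for inv and 83.31 against 75.59 for hh. Of the 2 anterior markers 1 was called lower, with sums of 1150 to 1206 against 1068 to 1139 CPM. Of 5 genes that follow the moulting hormone pulses (Blimp-1, Hr4, Hr3, Eip78C, ftz-f1), 4 were called lower and ftz-f1 higher, with a median log2 fold change of -6.99. The sum was 478 to 540 CPM in control and 111 to 112 in the single knockdown. Most of the latter was ftz-f1, which rose from a mean of 16.56 to 107.7 CPM. Blimp-1 fell from 168.4 to 0.4 CPM, Hr4 from 163.8 to 1.227, Hr3 from 68.75 to 0.5279 and Eip78C from 88.45 to 1.541. The 5 disc epithelium markers were all called lower. Neuron and glia markers were called higher in 1 and lower in 1 of 4 tested of 6, with sums of 31.6 to 34.2 against 34.5 to 38.7 CPM. The higher was moody, at a mean of 12.91 CPM in control and 17.16 in the single knockdown. The lower was Syt1, at 0.7567 and 0.2861 CPM, too low to weigh in the sum. In the double knockdown moody was at 11.63 and Syt1 at 2.345 CPM. Hemocyte markers were called lower in 2 of 5, with sums of 13.2 to 14.1 against 11.3 to 14.9 CPM, and fat body markers were called higher in 3 of 4, with sums of 10.6 to 12.8 against 52.2 to 55.6 CPM. No marker was at 0 in all 3 libraries of a genotype. The part of these differences in the results for the 9 genes was not tested.

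**Figure D2:**
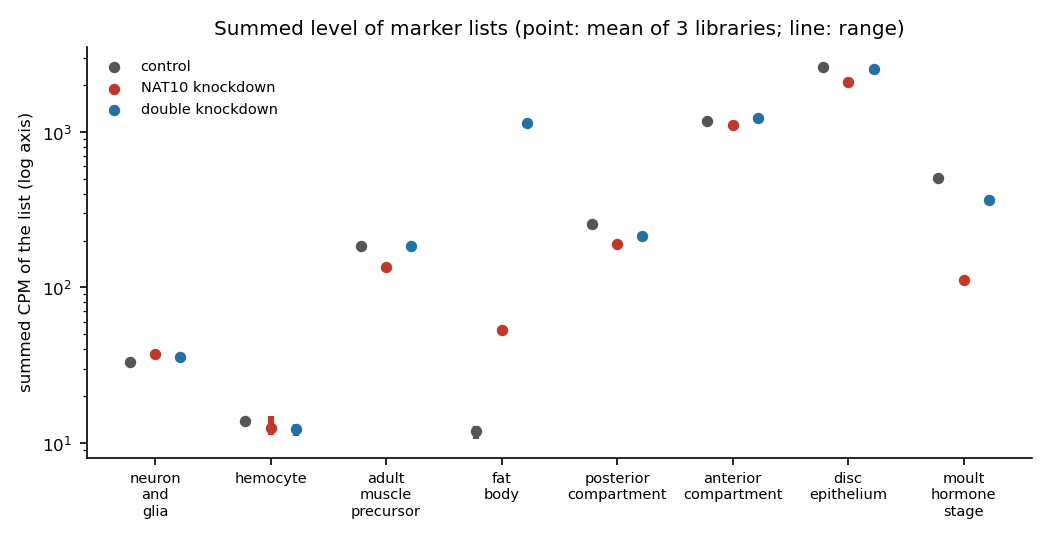
Summed normalised CPM of 8 marker lists on a log axis, with points for the mean of 3 libraries and lines for their range, by genotype. The moult hormone list falls to 111 to 112 CPM in the single knockdown, of which ftz-f1 makes up a mean of 107.7 CPM. The fat body list reaches 1124 to 1159 CPM in the double knockdown.

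The authors' deposited table for the same comparison gave lower values for all 9 genes, and an FDR under 0.05 for 5 of them. At that FDR, 6.07% of all entries in the authors' deposited table were lower and 14.3% higher. In the authors' deposited table the FDR was 3.02e-26 for sens, 2.09e-06 for ase, 3.27e-05 for sc and for pnr, and 0.0123 for emc. For the other 4 genes the authors' deposited table gave FDR values of 0.106 (phyl), 0.415 (ac), 0.469 (ush) and 0.78 (neur), so the calls of these 4 genes depend on the test. The log2 fold changes of sens were -3.36 in the authors' deposited table and -3.35 in the edgeR fit.

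With Xrp1 also knocked down, most of the 9 genes were near their control level. Against control 2 were called lower (sens and emc) and 1 higher (ush), while 6 were not called. Among all tested genes 15.5% were called lower and 15.7% higher, so these counts are close to the background. The median log2 fold change of the 9 genes was -0.06. Differences between genotypes that share the control libraries are not independent of each other.

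sens was 1.499-fold lower in the double knockdown than in control, at 7.19 ± 0.728 against 10.7 ± 0.886 CPM (log2 -0.58 ± 0.127, adjusted p = 0.000787), and all 3 libraries were below every control library. emc was 1.13-fold lower, at 543 ± 19.4 against 616 ± 7.13 CPM (log2 -0.18 ± 0.027, adjusted p = 6.84e-06), again without overlap. In the authors' deposited table neither passed, with an FDR of 0.225 for sens and 0.778 for emc, and of all its entries 0.501% were lower and 13.2% higher at an FDR under 0.05. ush was 1.09-fold higher, at 95.6 ± 3.23 against 87.7 ± 4.11 CPM (log2 0.12 ± 0.044, adjusted p = 0.0379), but its libraries overlapped those of control. The authors' deposited table gave ush an FDR of 0.0384. The call of ush was lost without control replicate 2 (adjusted p = 0.146), control replicate 3 (0.134), double knockdown replicate 1 (0.126) or double knockdown replicate 3 (0.102), and in DESeq2 (0.119).

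The remaining 6 genes had log2 fold changes against control of -0.01 ± 0.050 for sc, -0.06 ± 0.052 for pnr, 0.07 ± 0.063 for ac, -0.11 ± 0.057 for neur, -0.18 ± 0.224 for ase and 0.40 ± 0.250 for phyl. Their adjusted p-values in edgeR's quasi-likelihood test ran from 0.171 (neur) to 0.908 (sc). The estimates for ase and phyl have SEs several times those of sc and pnr, so these data bound their differences from control less tightly. neur was the one uncalled gene whose double knockdown libraries, at 34.7 to 36.9 CPM, did not overlap the control libraries, at 37.7 to 39.5 CPM. With sens and emc, 3 of the 9 genes were lower than control without overlap, as were 21.1% of all tested genes. The moulting hormone list summed to 353 to 379 CPM in the double knockdown, between the single knockdown and control, with 4 of 5 genes called lower than control and ftz-f1 called higher, 2.39-fold. Of the 3 posterior compartment markers 2 were called lower than control, with sums of 208 to 223 against 249 to 264 CPM. The fat body list, with 4 of 4 called higher, summed to 1124 to 1159 CPM. Their part in the results was not tested.

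Compared directly with the single knockdown, 8 of the 9 genes were higher in the double knockdown and none was lower. The same single knockdown libraries gave the lower levels against control, so these results are not independent of each other. Among all tested genes 28.4% were called higher and 28.3% lower. The median log2 fold change of the 9 genes was 0.64, against -0.01 over all tested genes. sens was 6.83-fold higher (log2 2.77 ± 0.194, adjusted p = 2.48e-12), ase 4.48-fold (2.16 ± 0.301, adjusted p = 7.98e-07) and phyl 2.67-fold (1.41 ± 0.282, adjusted p = 0.00012). sc was 1.63-fold higher (0.71 ± 0.052, adjusted p = 7.33e-12) and pnr 1.56-fold (0.64 ± 0.054, adjusted p = 1.04e-10). ush, ac and emc rose by 1.28-fold, 1.27-fold and 1.18-fold, with adjusted p-values of 1.4e-07, 4.99e-05 and 2.96e-08. In all 8 the libraries of the 2 knockdowns did not overlap, and 31.1% of all tested genes were higher without overlap. neur, at 35.8 ± 1.09 against 34.1 ± 1.06 CPM, was not called (log2 0.07 ± 0.057, adjusted p = 0.321), and its libraries overlapped. The NAT10 transcript itself was 1.20-fold higher in the double knockdown than in the single knockdown (log2 0.26 ± 0.042, adjusted p = 7.11e-06), at 71.8 to 77.1 against 61.4 to 63.2 CPM. All 5 adult muscle precursor markers and 4 of 5 disc epithelium markers were also called higher in this comparison, as were 2 of 3 posterior compartment markers. The marker lists with the largest differences were the moulting hormone list, with 4 of 5 called higher and a median log2 fold change of 6.48, and the fat body list, with 4 of 4 called higher and a median of 4.33. The part of these differences in the results was not tested.

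**Figure D3:**
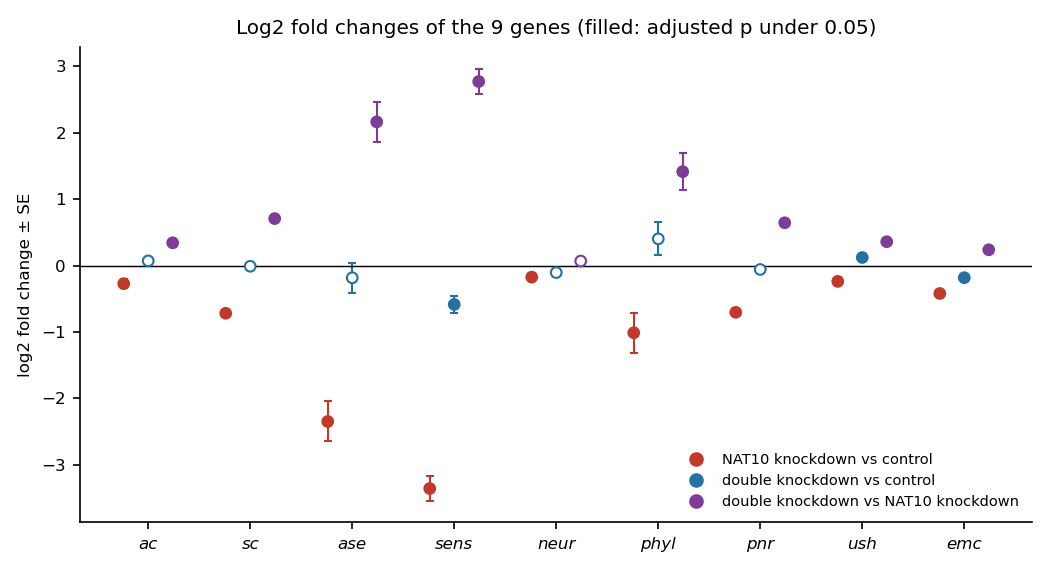
Log2 fold change ± SE of each of the 9 genes in the 3 comparisons of genotypes, with filled points for an adjusted p under 0.05. sens and ase have the longest reach, from -3.35 and -2.35 in the single knockdown against control to 2.77 and 2.16 in the double against the single knockdown.

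Levels between genes were compared per transcript length, as the deposited FPKM, a level scaled to transcript length and library size. In control the order was emc (298 ± 3.18 FPKM), sc (40.8 ± 1.40), ac (31.9 ± 0.980), pnr (18.6 ± 0.548), ush (18.2 ± 0.726), neur (9.98 ± 0.202), sens (4.35 ± 0.356), ase (1.40 ± 0.241) and phyl (1.10 ± 0.336). Neighbours overlapped for pnr with ush and for ase with phyl. In the single knockdown ac (26.7 ± 0.699 FPKM) and sc (25.0 ± 1.35) overlapped, ush (15.3 ± 0.709) stood above pnr (11.4 ± 0.268), and sens (0.425 ± 0.140) overlapped both phyl (0.541 ± 0.144) and ase (0.274 ± 0.170). In the double knockdown the FPKM of sc (41.3 ± 1.64) was again above that of ac (34.2 ± 1.47), ush (20.1 ± 0.759) stayed above pnr (18.1 ± 0.934), and sens (2.96 ± 0.277) was again above phyl (1.46 ± 0.277) and ase (1.251 ± 0.092).

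The estimated changes of genes of one locus or one step differed in size. The permutation tests below cannot reach a p under 0.1, so they do not decide whether these differences hold. The log2 ratio of the sc count to the ac count was 1.00 ± 0.022 in control, 0.56 ± 0.116 in the single knockdown and 0.92 ± 0.105 in the double knockdown. The difference between the single knockdown and control was -0.45, with an exact two-sided permutation p = 0.1, the smallest that 3 against 3 libraries allow. For sens relative to sc the difference was -2.71, for ase relative to sc -1.79, for sc relative to emc -0.30, for pnr relative to ush -0.47 and for sc relative to da, the gene of its partner Daughterless, -0.47. Each of these ratios separated all single knockdown libraries from all control libraries at the same exact permutation p = 0.1 (0.12 after adjustment over the 18 tests of 6 ratios). Against control, the double knockdown differed by -0.57 in the sens to sc ratio by 0.17 in the sc to emc ratio and by -0.18 in the pnr to ush ratio, each without overlap (exact permutation p = 0.1). The sc to da ratio differed there by 0.02, with an exact permutation p = 0.9. The ratios were chosen with the gene levels known.

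The genes whose log2(CPM + 1) followed each member most closely over the 9 libraries were listed by Pearson's r, as a description. The libraries share genotypes, so r is dominated by the 3 genotype means. They were Rala (r = 0.994) and CG2663 (0.992) for sc, Cbp80 (0.990) and Fatp3 (0.984) for ac, udt (0.998) and CG17816 (0.996) for pnr, and H (0.988) and Bx (0.985) for ush. For emc they were CG11857 (0.996) and Pino (0.992), for sens spz6 (0.997) and LRR (0.995), and for ase CG15822 (0.986) and CG31510 (0.985). The closest genes to neur, Yip1d1 (0.966) and CG1951 (0.955), and to phyl, baz (0.949) and CG15765 (0.944), had lower r. The closest gene to sens, spz6, was at 25.7 CPM in control, 7.04 in the single knockdown and 20.1 in the double knockdown.

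Genes near ac, sc and ase on the X chromosome did not share 1 pattern. The proneural gene l(1)sc, which lies between sc and ase, was at 0.402 ± 0.138 CPM in control and 0.172 ± 0.099 in the single knockdown, too low to be tested. CG32816, whose annotated span reaches past all 3 members, was lower in the single knockdown, at 0.572 ± 0.052 against 1.33 ± 0.186 CPM (log2 -1.20, adjusted p = 0.00705). ebo, next to it, was not called, at 178 ± 6.07 against 176 ± 2.93 CPM. The pigmentation gene y, upstream of ac, read 0.279, 0.071 and 0.234 CPM in control, 0 in all 3 single knockdown libraries, and 9.14, 6.81 and 8.92 in the double knockdown (log2 5.30 against control, adjusted p = 9.28e-13). ac was not called in that comparison.

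**Figure D4:**
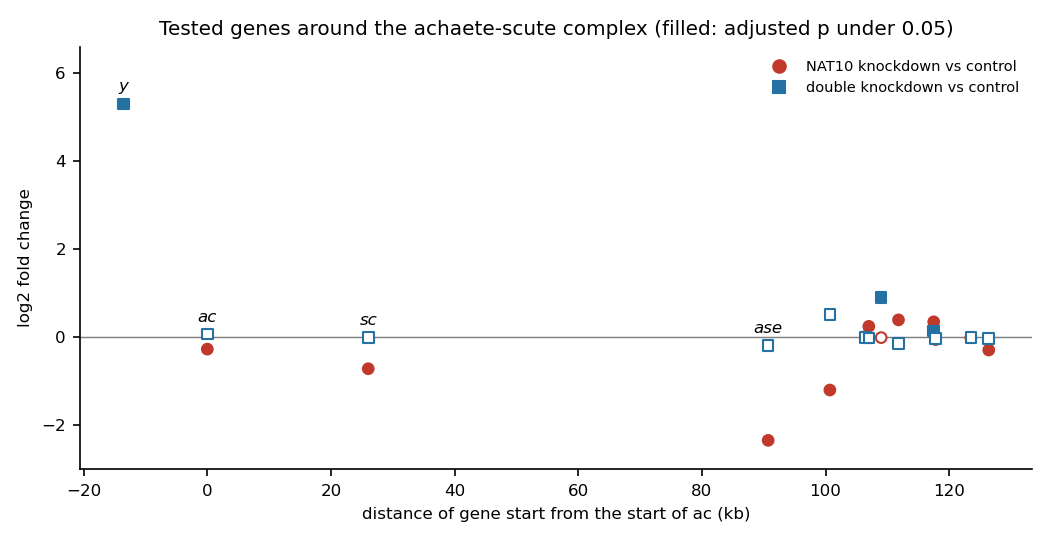
Log2 fold changes of the tested genes around the achaete-scute complex against the distance of their start in transcription from that of ac, in kb, for both knockdowns against control. Filled symbols have an adjusted p under 0.05, and y is not drawn for the single knockdown because all 3 libraries hold 0 counts; ac, sc and ase are below 0 in the single knockdown and open in the double knockdown.

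The wider pathway was followed in 6 lists of 75 genes, of which 69 were tested. The lists were chosen with earlier results of these data known, so their counts are a description and not a test. In the single knockdown against control 39 were called lower and 14 higher, with a median log2 fold change of -0.23. The shares over all tested genes were 29.6% lower and 32.5% higher. In the double knockdown against control 8 were called lower and 12 higher, near the shares of 15.5% and 15.7% over all tested genes. Against the single knockdown 42 were called higher and 9 lower, beside 28.4% and 28.3% of all tested genes. The proneural partner list had 2 tested genes of 5, and both were lower in the single knockdown. da, whose protein pairs with Achaete and Scute, was at 174 CPM in control, 146 in the single knockdown and 171 in the double knockdown (log2 -0.25 ± 0.034, adjusted p = 5.15e-07 in the single knockdown). ato, the proneural gene of the internal chordotonal organs, was at 1.36, 0.361 and 0.895 CPM (log2 -1.88 ± 0.401, adjusted p = 0.000233).

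Thorax prepattern genes and Pannier cofactors were lower in 12 of 17 cases in the single knockdown and higher in none, with a median log2 fold change of -0.32, beside 29.6% lower and 32.5% higher over all tested genes. sr, a prepattern and tendon gene, was at 26.9 CPM in control, 9.82 in the single knockdown and 18.2 in the double knockdown (log2 -1.45 ± 0.081, adjusted p = 1.86e-14), and it stayed below control in the double knockdown (log2 -0.56 ± 0.074, adjusted p = 1.1e-06). ara, an Iroquois gene that activates ac and sc in the lateral thorax, was at 106, 66.5 and 109 CPM (log2 -0.67 ± 0.042, adjusted p = 1.44e-13). Between the knockdowns, 16 of the 17 were called higher in the double than in the single, beside 28.4% of all tested genes. Among the 16 were ara (log2 0.71 ± 0.041) and salm (0.46 ± 0.028). Against control 4 were higher in the double knockdown, among them salm and CtBP, and 2 lower, sr and wg, beside 15.7% higher and 15.5% lower over all tested genes.

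Genes of the precursor and its lineage were lower in 10 and higher in 3 of 15 tested of 16, with a median of -0.67, where 29.6% and 32.5% of all tested genes were lower and higher. rho, which activates EGF receptor ligands, was at 10.0 CPM in control, 3.25 in the single knockdown and 8.64 in the double knockdown (log2 -1.61 ± 0.137, adjusted p = 9.79e-11). ttk, which encodes the Tramtrack repressor targeted through Phyllopod, was at 385.5, 275 and 385.5 CPM (log2 -0.49 ± 0.029, adjusted p = 4.55e-14). chn, a gene of bristle development, went the other way, at 144.5 CPM in control, 260 in the single knockdown and 179 in the double knockdown (log2 0.85 ± 0.029, adjusted p = 5.39e-19). chn stayed above control in the double knockdown (log2 0.31 ± 0.030, adjusted p = 5.14e-09). Chosen after their values were seen, sv, a Pax gene of the bristle lineage, was at 1.02, 0.075 and 0.828 CPM, and pros, a homeobox gene of precursor daughters, at 1.23, 0.173 and 0.633 CPM, and both were called lower in the single knockdown (log2 -3.62 ± 0.613 and -2.78 ± 0.517).

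The list of Hairy and Enhancer of split repressors and their corepressor gro held 11 genes, 10 of them tested. Beside 32.5% higher and 29.6% lower over all tested genes, 8 were higher and none lower in the single knockdown, with a median of 0.24. That higher count ran from 6 to 8 over the alternatives. The E(spl) genes of the list are Notch targets that repress proneural genes, while Hairy is a prepattern repressor of ac. dpn rose from 35.5 to 60.3 CPM (log2 0.76 ± 0.057, adjusted p = 7.14e-12) and was at 44.1 in the double knockdown. E(spl)mgamma-HLH was at 6.19 CPM in control, 10.3 in the single knockdown and 6.35 in the double knockdown (log2 0.72 ± 0.121, adjusted p = 1.23e-05 in the single knockdown). Against control 3 of the group were higher in the double knockdown, dpn, E(spl)m3-HLH and h, and none was lower. Over all tested genes 15.7% were higher and 15.5% lower. The adjusted p of h was 0.0443 in the edgeR test, and the higher count in the double knockdown ran from 2 to 5 over the alternatives.

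Bearded family genes, whose small proteins antagonise Neuralized, were lower in 4 and higher in 2 of 7 tested of 8. Over all tested genes 29.6% were lower and 32.5% higher, and the higher count is near its share. Tom fell from 125 to 91.4 CPM (log2 -0.45 ± 0.046, adjusted p = 3.95e-09) and Brd rose from 20.8 to 28.2 (log2 0.44 ± 0.072, adjusted p = 7.33e-06). Of 18 genes of Notch signalling 11 were lower and 1 higher, with a median of -0.20, beside 29.6% and 32.5% of all tested genes. mam, a coactivator of Notch, was at 175 CPM in control, 89.8 in the single knockdown and 152 in the double knockdown (log2 -0.96 ± 0.050, adjusted p = 2.36e-12). The ligand gene Ser was at 341, 253 and 339 CPM (log2 -0.43 ± 0.025, adjusted p = 4.86e-14). mib1, a ubiquitin ligase for Notch ligands, was the 1 called higher, at 136 against 116 CPM (log2 0.24 ± 0.037, adjusted p = 3.77e-06).

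**Figure D5:**
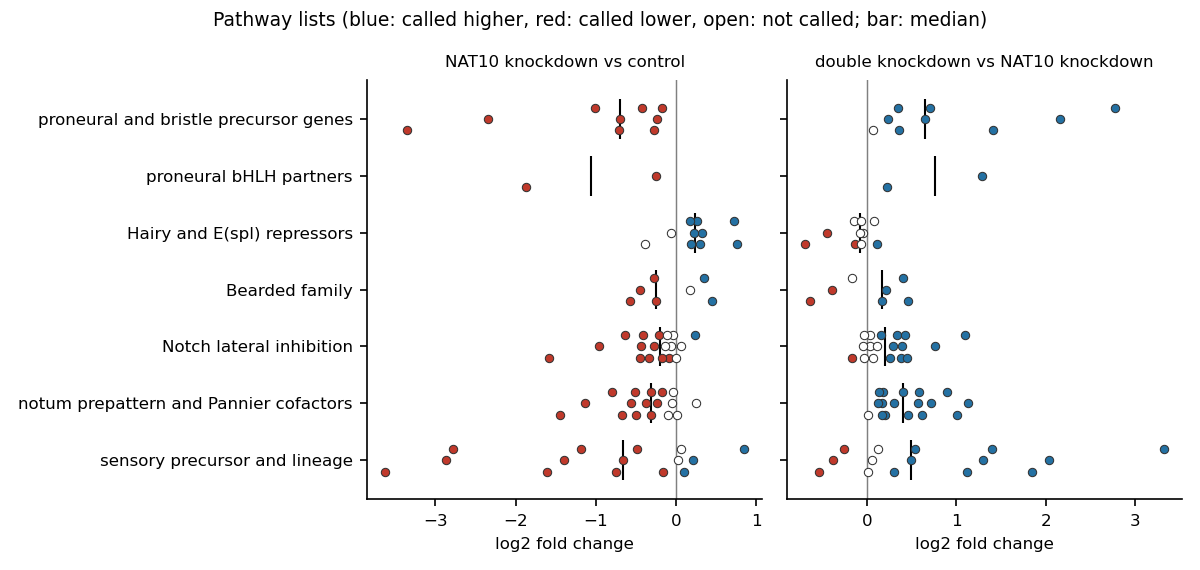
Log2 fold changes of the 9 genes and of the tested genes of 6 pathway lists, for the single knockdown against control (left) and the double against the single knockdown (right). Points are genes, coloured by call, and bars are medians; the Hairy and E(spl) list has its median at 0.24 on the left, while the 9 genes have theirs at -0.70.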

How the data were processed

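Polyadenylated RNA of 9 wing disc libraries was analysed in 3 genotypes of 3 replicates, grouped by the labels. The estimated counts per gene were deposited by the authors. The submitters' processing notes name RSEM (no version), StringTie 1.3.1, HISAT2 2.1.0 and fastp 0.18.0. The build: not given in the sources used here. FPKM values, deposited by the authors, served for levels between genes. The log2 fold changes and the p-value-based FDR were deposited by the authors in 2 comparison tables, with a test that the sources used here do not name. Of the values in a library 8.19% to 9.11% were not whole, and estimated counts were rounded. Counts were fitted over all 9 libraries in edgeR 4.0.16 (R 4.3.3) with TMM, filterByExpr and the robust quasi-likelihood test. The code was run on simulated counts with the same spread set for all genes, so that check does not cover genes with a larger spread. The common biological coefficient of variation was 3.61%. The floor of 3 counts covers counting error only. Ratios were compared by exact permutation in scipy 1.17.1. DESeq2 1.42.0, other size factors, other filters, a fit of only the 2 genotypes compared, a replicate block and leaving out each library were alternatives. Named genes were the 9 members, up to 2 called genes per direction, list and comparison with the smallest adjusted p (a selection of these is printed), the 2 genes most correlated with each member, and genes within 60 kb of the interval from ac to ase. The members and lists were chosen with earlier results of these data known.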

Additional observations from a re-analysis of the deposited data

How the results depend on the processing

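No member lost its call or turned its direction in the single knockdown against control or in the double against the single knockdown under any alternative that tested it, and ush against control in the double knockdown was the only call lost (5 alternatives, given above). A filter of 5 CPM in 3 libraries removed ase and phyl, leaving 7 members called lower in the single knockdown and 6 higher in the double against the single knockdown. With that filter the proneural partners fell to 1 lower (1 higher in the double against the single knockdown), precursor genes to 6 lower (5 higher), because fewer genes were tested, the Hairy and E(spl) group had 1 lower, and the Bearded family 1 lower in the double knockdown against control. In the single knockdown against control the Hairy and E(spl) group also had 1 lower with RLE size factors, no filter, only the 2 genotypes compared or DESeq2, the Notch list 2 higher with total counts only, and the prepattern list 1 higher with only the 2 genotypes. In the double knockdown against control total counts only gave 5 higher in the Hairy and E(spl) group and 2 higher and 1 lower in the Bearded family. Of all genes called in that comparison, the share called higher moved from 50.3% to 60.7%. There the Bearded family had 1 higher with no filter, 1 higher and 1 lower with only the 2 genotypes, and 1 lower in DESeq2, which also called 0 members higher and 1 precursor gene lower. The cause was not tested. Leaving out 1 library gave 0 to 1 Hairy and E(spl) genes lower and 0 to 1 prepattern genes higher in the single knockdown. In the double knockdown against control it gave 0 to 1 members higher, 0 to 1 Bearded genes higher and 1 to 2 lower, 2 to 5 prepattern genes higher and 1 to 2 precursor genes lower, and against the single knockdown 1 to 2 proneural partners higher. Same-numbered libraries did not visibly deviate together (r from -0.035 to 0.079, best match with the own number in 4 of 9 cases). With 3 libraries per genotype this cannot decide whether the numbers pair the samples. A replicate block left 9, 3 and 8 members called in the 3 comparisons. Depth limits ase, sens and phyl, with 7 to 22 counts in single knockdown libraries.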
